A study of Mus musculus with 9 samples.

Results

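The genes described here are 39 genes of DNA replication and of the passage from G1 into S phase, chosen by symbol from a fixed list, and all 39 were found among the 21878 symbols of the deposited count table. They were read in wild-type C57BL/6 hepatocytes that were reprogrammed in culture into liver progenitors, transduced with a GFP lentivirus, redifferentiated for 3 weeks and then exposed to copper chloride for 24 hours (WT-GFP). The labels' protocols give the copper dose as 100 µM, and their treatment field gives 100 mM. The series holds 9 samples in 3 groups of 3, all exposed to copper: Atp7b knockout cells with an ATP7B lentivirus, knockout cells with a GFP lentivirus, and the WT-GFP cells, which the growth protocol but not the titles lists with ATP7B. Only the count columns of WT-GFP replicates 1 and 2 carry a name that ties them to a sample. The assignment of the 7 other columns could only have been inferred from their order, so they were not used, and no difference between genotypes, vectors or copper states is given. The promoter of the lentivirus, the age of the mice and the number of mice or cultures behind the libraries were not stated, so the spread between the replicates may be technical.

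Before a cell copies its genome, the origin recognition complex, CDC6 and CDT1 load rings of MCM2 to MCM7 onto origins, which is called licensing. In S phase CDC45, the GINS complex and MCM10 help to turn each ring into a working helicase, and primase, the polymerases and the PCNA clamp with its RFC loader copy the opened strands. Cyclin E and the E2F transcription factors drive the entry into S phase, and most of these genes are known E2F targets. Adult hepatocytes mostly rest outside the cycle but enter it again when the liver regenerates or when they are reprogrammed in culture.

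Promoter sequences are shown for the helicase genes Mcm6, Mcm3 and Mcm7 and for the licensing gene Cdc6, because each holds a textbook E2F sequence. RefSeq windows from 250 bases before to 50 bases after an annotated start (GRCm38.p6) were held for 32 of the 39 members. Several windows were held for 5 of these (38 windows in all), and a match in any window counted for the gene. Mcm7 had a further window, without a match, which is not shown. The letters TTTCCCGC and TTTGGCGC were searched on both strands, and the capitals below mark the matches, read 5′ to 3′ on the strand of the gene.

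Mcm6 (chr1:128359656-128359955, minus strand): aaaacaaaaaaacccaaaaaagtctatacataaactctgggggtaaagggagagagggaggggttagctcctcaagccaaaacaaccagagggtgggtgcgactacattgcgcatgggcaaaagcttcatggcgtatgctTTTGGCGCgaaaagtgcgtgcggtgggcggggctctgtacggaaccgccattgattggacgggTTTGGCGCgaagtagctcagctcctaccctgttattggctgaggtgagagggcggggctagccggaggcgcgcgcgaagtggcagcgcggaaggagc

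Mcm3 (chr1:20820263-20820562, minus strand): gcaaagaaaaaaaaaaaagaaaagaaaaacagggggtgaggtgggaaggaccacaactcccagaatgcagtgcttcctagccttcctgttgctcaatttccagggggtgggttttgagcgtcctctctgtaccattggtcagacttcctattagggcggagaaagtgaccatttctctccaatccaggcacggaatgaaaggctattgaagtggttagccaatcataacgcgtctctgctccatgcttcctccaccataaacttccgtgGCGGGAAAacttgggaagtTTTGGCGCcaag

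Mcm7 (chr5:138171834-138172133, minus strand): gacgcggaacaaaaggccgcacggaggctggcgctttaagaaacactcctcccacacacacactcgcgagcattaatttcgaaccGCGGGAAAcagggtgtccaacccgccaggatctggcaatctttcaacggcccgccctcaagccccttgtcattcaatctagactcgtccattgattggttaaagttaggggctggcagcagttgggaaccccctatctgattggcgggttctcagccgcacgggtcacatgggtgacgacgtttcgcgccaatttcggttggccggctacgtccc

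Cdc6 (chr11:98907901-98908200, plus strand): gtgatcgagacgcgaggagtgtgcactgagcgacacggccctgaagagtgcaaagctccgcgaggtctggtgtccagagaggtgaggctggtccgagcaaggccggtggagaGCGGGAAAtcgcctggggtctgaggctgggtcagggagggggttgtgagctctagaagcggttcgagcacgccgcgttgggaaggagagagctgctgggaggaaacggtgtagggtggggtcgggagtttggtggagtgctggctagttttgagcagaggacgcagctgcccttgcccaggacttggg

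One or the other of these letter strings stood in the window of 11 of the 32 members (34.4%), against 486 of all 27025 genes with a window (1.80%) and 177 of the 4665 genes with a window and a mean of at least 10 FPKM (3.79%). FPKM are counts divided by the length of the gene and the size of the library. The first string was found in 6 members (18.8%, against 1.24% of all genes) and the second in 6 (18.8%, against 0.585% of all genes), with Mcm3 holding both. Mcm6 held the second string at 110 and 47 bases upstream of its start. The other members with a match were Cdt1, E2f2, Gins3, Mcm5, Pola1, Pold1 and Rfc3. The CCAAT box, searched as CCAAT, stood in a window of 20 of the 32 members (62.5%, against 41.1% of all genes). The cell cycle homology region, searched as TTTGAA, stood in 5 (15.6%, against 20.2% of all genes). Of the 4665 genes at 10 FPKM or more, 1983 held CCAAT (42.5%) and 607 held TTTGAA. The members' share with TTTGAA thus lay below that of all genes but above that of genes at this level. No E2F string overlapped another. A match describes letters and shows no binding.

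**Figure D1:**
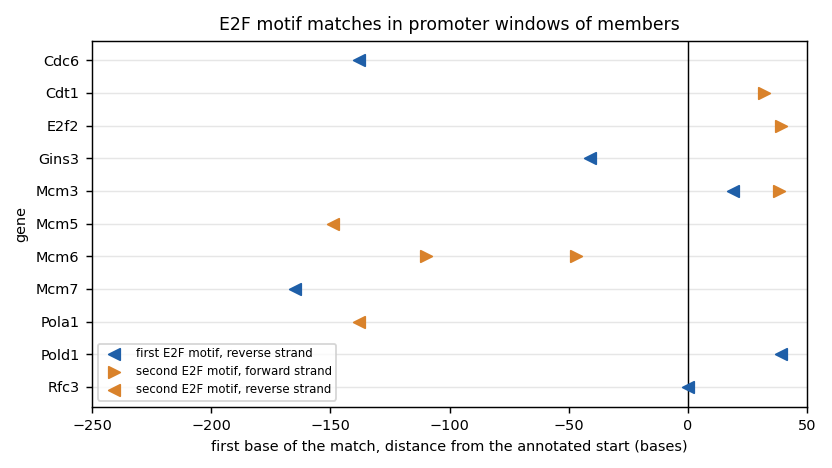
Positions of the E2F motif matches in the promoter windows of 11 members. The x axis is the distance in bases of the first base of a match from the annotated start (0), colours separate TTTCCCGC (the first motif) from TTTGGCGC (the second), and arrowheads give the strand. The 13 matches lie on both sides of the start.

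Each library held about as many counts as the other, 18532457 in replicate 1 and 17821682 in replicate 2, and 10680 genes reached 1 FPKM in each. The 7 hepatocyte markers were all expressed, the lowest by mean being Serpina1a at 19.3 FPKM in replicate 1 and 14.9 FPKM in replicate 2. The highest, albumin (Alb), was at 953 and 906 FPKM. The 6 biliary and progenitor markers ranged by mean from Epcam, at 1.41 and 2.67 FPKM, to Cd24a, at 668 and 630 FPKM. Between them lay Krt7 at 10.4 and 10.3 FPKM and Krt19 at 370 and 318 FPKM. All 5 endothelial, all 5 stellate or fibroblast and all 4 lymphocyte markers were below 1 FPKM, with sums of 0.614 and 0.702, 0.226 and 0.0932, and 0.0407 and 0 FPKM in replicates 1 and 2. Of 5 macrophage markers 3 were below 1 FPKM, and Adgre1 and Clec4f had no counts. For no counts the exact 95% interval reaches 0.199 CPM in replicate 1 and 0.207 CPM in replicate 2. CPM are counts scaled by library size alone.

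All 39 members were expressed above 1 FPKM, 29 of them (74.4%) at 10 FPKM or more. Over all symbols with a count, 38.1% reached 10 FPKM, and over the 9644 genes whose mean count lay in the range of the members (117.5 to 7425) 57.7% did. The median over members was 18.8 FPKM, with medians of 18.8 FPKM in replicate 1 and 19.6 FPKM in replicate 2, beside 5.66 FPKM over all symbols with a count and 12.4 FPKM over the genes in the same count range. Together the members made up 0.287% of replicate 1 (0.285 to 0.290%, Wilson 95% interval) and 0.311% of replicate 2 (0.308 to 0.313%). These intervals, like all given below, cover counting error only. The 39 means spanned 133-fold, and the order of the levels was nearly the same in both libraries (Spearman's rho 0.99 across the 39 genes, which share the 2 libraries and are not replicates). Of the 38 neighbouring pairs in that order, 28 had ranges over the 2 libraries that overlapped. Some of these pairs still kept their order within each library, such as Pcna (190 and 207 FPKM) above Rrm2 (185 and 190 FPKM).

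**Figure D2:**
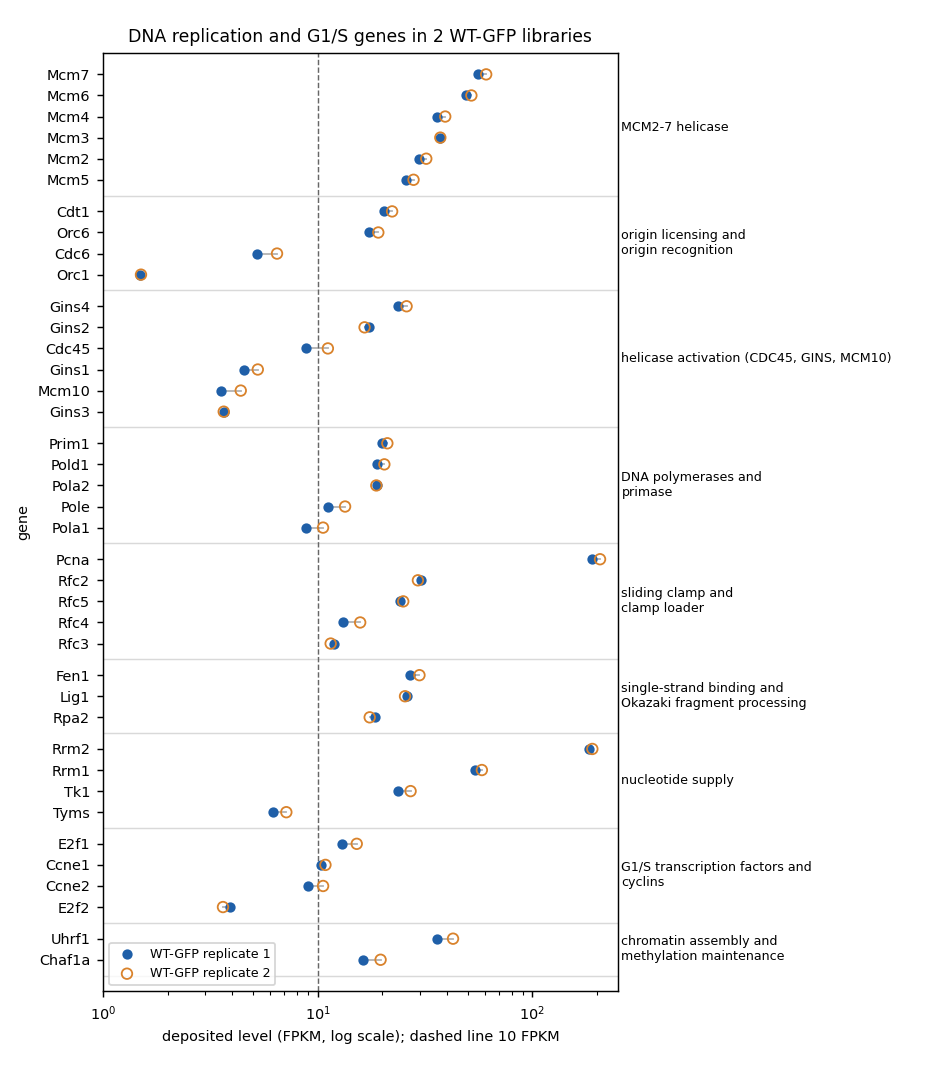
Deposited FPKM (log axis) of each of the 39 members in WT-GFP replicate 1 (filled) and replicate 2 (open), grouped by role and ordered by mean level within each group. Pcna and Rrm2 stand apart at the high end near 200 FPKM and Orc1 at the low end at a mean of 1.49 FPKM, and 29 members have means to the right of the dashed line at 10 FPKM.

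The levels rest on the gene lengths behind the deposited FPKM, which the deposited values imply but whose annotation was not named. With exon-union lengths from GENCODE release M21 the median of the members was 9.98 FPKM, beside 9.46 FPKM over the genes in the same count range, and 19 members reached 10 FPKM. The excess of the members over genes with like counts thus nearly vanished with those lengths. The level moved by more than 1.5 times for 14 members, each of them lower with the GENCODE length: Pcna, Rrm1, Mcm2, Rfc2, Tk1, Rfc5, Prim1, Pola2, Rpa2, Chaf1a, Gins2, Pole, Rfc3 and Pola1. The order of the members was less well kept across this change than across libraries (Spearman's rho 0.89). Ratios between libraries do not depend on the length.

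The helicase ring genes were all expressed, with means between 26.9 and 58.5 FPKM. Mcm7 (chromosome 5, 138164583 to 138172422, minus strand) was at 56.0 FPKM in replicate 1 and 61.0 FPKM in replicate 2, from 3174 and 3321 counts, and Mcm6 was at 49.2 and 52.0 FPKM, from 4038 and 4107 counts. Mcm4 followed at 36.0 and 39.3 FPKM (2397 and 2513 counts) and Mcm3 at 37.0 and 37.3 FPKM (1977 and 1917 counts). Mcm7 and Mcm6 stood above the other ring genes in both libraries, whereas Mcm4 and Mcm3 overlapped. Mcm2 was at 29.5 and 32.1 FPKM (1845 and 1926 counts) and Mcm5 at 25.8 and 28.0 FPKM (1643 and 1715 counts). The FPKM ratio of Mcm7 to Mcm5 was 2.17 in replicate 1 and 2.18 in replicate 2, and 1.74 and 1.75 with GENCODE lengths. The ring itself is known to hold each of the proteins once. Mcm2 came to 14.9 FPKM on average with its GENCODE length, which would put it below Mcm5 (23.2 FPKM).

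With the deposited lengths the loading factors had lower means than any ring gene. Cdt1, which brings the rings to origins, was at 20.5 and 22.2 FPKM in replicates 1 and 2 (831 and 868 counts). Orc6, a subunit of the origin recognition complex, was at 17.3 and 19.2 FPKM (530 and 565 counts), and Cdc6 at 5.20 and 6.47 FPKM (473 and 566 counts). Orc1 (chromosome 4, 108579423 to 108614833, plus strand), the subunit whose amount is known to vary with the cycle in mammalian cells, was the lowest of all members in both libraries. It was at 1.483 and 1.504 FPKM from 119 and 116 counts, or 6.42 CPM (95% exact interval 5.32 to 7.68) and 6.51 CPM (5.38 to 7.81). Among the partners outside the list, Orc2 was at 18.305 and 21.004 FPKM, while geminin (Gmnn), the inhibitor of CDT1, was at 19.5 and 22.3 FPKM. The ratio of Cdt1 to Gmnn was 1.05 in replicate 1 and 0.997 in replicate 2, so neither was above the other in both libraries.

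Genes for activating the helicase had a median deposited level of 7.45 FPKM over 6 genes, of which 2, Gins4 and Gins2, reached 10 FPKM. The GINS complex holds one copy of each of its 4 subunits, yet its genes ranged from Gins4 at 23.7 and 26.0 FPKM to Gins3 at 3.65 and 3.65 FPKM in replicates 1 and 2. The ratio of Gins4 to Gins3 was 6.49 in replicate 1 and 7.11 in replicate 2, and 7.37 and 8.07 with GENCODE lengths. Gins2 was at 17.4 and 16.5 FPKM, though 67.3% of its annotated exon bases lie opposite exons of Gse1, and Gins1 was at 4.52 and 5.26 FPKM. With GENCODE lengths the mean of Gins2 (4.29 FPKM) fell below that of Gins1 (5.20 FPKM). Gins4 (25.1 FPKM) was then the only gene of the group to reach 10 FPKM. Gins1 and Gins3 also had few counts, 135 and 151 for Gins1 and 163 and 157 for Gins3. Cdc45 was at 8.84 and 11.2 FPKM (438 and 532 counts) and Mcm10 at 3.57 and 4.38 FPKM (444 and 525 counts). Both were lower in replicate 1, by the widest margins in this group.

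Polymerase and primase genes had a median of 18.8 FPKM, and 4 of the 5 were at 10 FPKM or more. By mean deposited FPKM the highest was Prim1, the catalytic primase subunit, at 20.0 and 21.1 FPKM (569 and 577 counts), and the lowest Pola1, the catalytic subunit of polymerase alpha, at 8.84 and 10.6 FPKM (885 and 1020 counts). Pold1, of the lagging strand polymerase, averaged 19.6 ± 1.16 FPKM (SD, n = 2), Pola2 18.8 ± 0.104 FPKM and Pole, of the leading strand polymerase, 12.3 ± 1.62 FPKM. The ranges of Prim1 and Pold1 overlapped, and with GENCODE lengths Pold1 (13.8 FPKM) was above Prim1 (8.15 FPKM). Prim2, the other primase subunit, was at 8.93 and 9.08 FPKM, less than Prim1 in both libraries (ratio 0.446 and 0.430).

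Pcna (chromosome 2, 132249162 to 132253314, minus strand), the sliding clamp, had the highest mean deposited FPKM of the 39 members. It was at 190 FPKM in replicate 1 and 207 FPKM in replicate 2, from 4432 and 4642 counts, and ranked 306 among all symbols by its mean. The genes of its loader were far lower, with deposited lengths from Rfc2 at 30.1 and 29.3 FPKM (848 and 793 counts) to Rfc3 at 11.9 and 11.5 FPKM (268 and 249 counts). Rfc5 averaged 24.7 ± 0.525 FPKM and Rfc4 14.4 ± 1.90 FPKM (SD, n = 2 each). Pcna exceeded Rfc2 by 6.30 times in replicate 1 and 7.05 times in replicate 2, and by 13.7 and 15.4 times with GENCODE lengths. With those lengths Rfc4 (11.5 FPKM) and Rfc5 (9.14 FPKM) were above Rfc2 (7.16 FPKM), and Rfc3 (3.94 FPKM) stayed the lowest loader gene. Pcna-ps1 and Pcna-ps2 are annotated pseudogenes, and the counting of shared reads was not described.

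With the deposited lengths the 3 genes for handling single strands and Okazaki fragments were close together. Fen1, the flap nuclease, was at 26.9 and 29.8 FPKM in replicates 1 and 2 (1193 and 1272 counts) and Lig1, the ligase that seals the fragments, at 26.0 and 25.5 FPKM. Rpa2, a subunit of the single-strand binding protein RPA, was the lowest at 18.5 and 17.5 FPKM (611 and 555 counts). Its partner Rpa1 was at 42.7 and 42.9 FPKM, above Rpa2 in both libraries. The 3 genes lay further apart with GENCODE lengths, at means of 28.0 FPKM for Fen1, 21.2 FPKM for Lig1 and 10.7 FPKM for Rpa2. Of the annotated exon bases of Fen1, 78.8% lie opposite the antisense gene Gm10143, and the strand setting of the counting was not described.

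Among the genes for nucleotide supply, the ribonucleotide reductase subunits were the most abundant. Rrm2 (chromosome 12, 24708241 to 24714146, plus strand), the subunit whose expression is known to follow S phase, was at 185 and 190 FPKM (7456 and 7394 counts). Rrm1, the large subunit, was at 54.3 and 58.2 FPKM. Rrm2 and Pcna overlapped in their deposited FPKM over the 2 libraries and stood apart from Mcm7, the next member by mean. With GENCODE lengths Rrm2 came first, at 145 and 150 FPKM, above Pcna at 99.6 and 109 FPKM, and the next member was Mcm6 at a mean of 48.0 FPKM. The ratio of Rrm2 to Rrm1 was 3.40 in replicate 1 and 3.27 in replicate 2, and 7.37 and 7.09 with GENCODE lengths. Thymidine kinase (Tk1) was at 23.6 and 27.1 FPKM (896 and 988 counts) and thymidylate synthase (Tyms) at 6.21 and 7.15 FPKM (610 and 675 counts). Tyms has an annotated pseudogene, Tyms-ps.

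With the deposited lengths the 4 cyclin E and E2F genes all had means below the median of the members. E2f1 was at 13.04 FPKM in replicate 1 and 15.21 FPKM in replicate 2 (749 and 840 counts) and E2f2 was at 3.93 FPKM in replicate 1 and 3.62 FPKM in replicate 2 (364 and 323 counts). E2f1 thus exceeded E2f2 in both libraries, by 3.32 and 4.20 times. With GENCODE lengths E2f1 came to a mean of 13.9 FPKM, above the members' median of 9.98 FPKM. Ccne1 was at 10.4 and 10.9 FPKM (376 and 379 counts) and Ccne2 at 9.05 and 10.6 FPKM (576 and 649 counts), with a ratio of Ccne1 to Ccne2 of 1.15 and 1.03. With GENCODE lengths that ratio was 0.857 and 0.767, so the order of the cyclin E genes turned with the length used. Of the genes that act on newly copied DNA, Uhrf1, which recruits the maintenance methyltransferase, was at 36.1 and 42.7 FPKM (2441 and 2780 counts). Chaf1a, the large subunit of chromatin assembly factor, was at 16.2 and 19.6 FPKM (996 and 1158 counts). Dnmt1, the methyltransferase itself, was at 29.3 and 32.7 FPKM. The exons of Chaf1a lie opposite those of Ubxn6 over 52.5% of their bases.

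The members were lower in replicate 1 than in replicate 2 as a group, by small amounts. Counts of each gene were compared by a two-sided exact binomial test that takes the library sizes as given. The 12302 genes averaging 10 counts or more were tested, and p-values were adjusted over all of these by the Benjamini-Hochberg method. The test compares 2 libraries of the same condition with counting error, and says nothing of a treatment. At an adjusted p under 0.05 it called 14 of the 39 members (35.9%), all of them lower in replicate 1. Of all genes tested it called 14.8%, with 8.38% lower and 6.38% higher in replicate 1, and of the genes in the count range of the members 15.4%, with 9.20% lower. In sign alone, 32 of 39 members (82.1%) were lower in replicate 1, beside 53.0% of all genes tested. The median log2 ratio of replicate 1 to replicate 2 was -0.12 over the members and -0.01 over all genes tested. With TMM scaling (normalization factors from edgeR) 30 members were lower in sign and 13 were called, all lower, beside 836 genes lower (6.80%) and 958 higher over all genes, against 1031 lower and 785 higher without it.

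**Figure D3:**
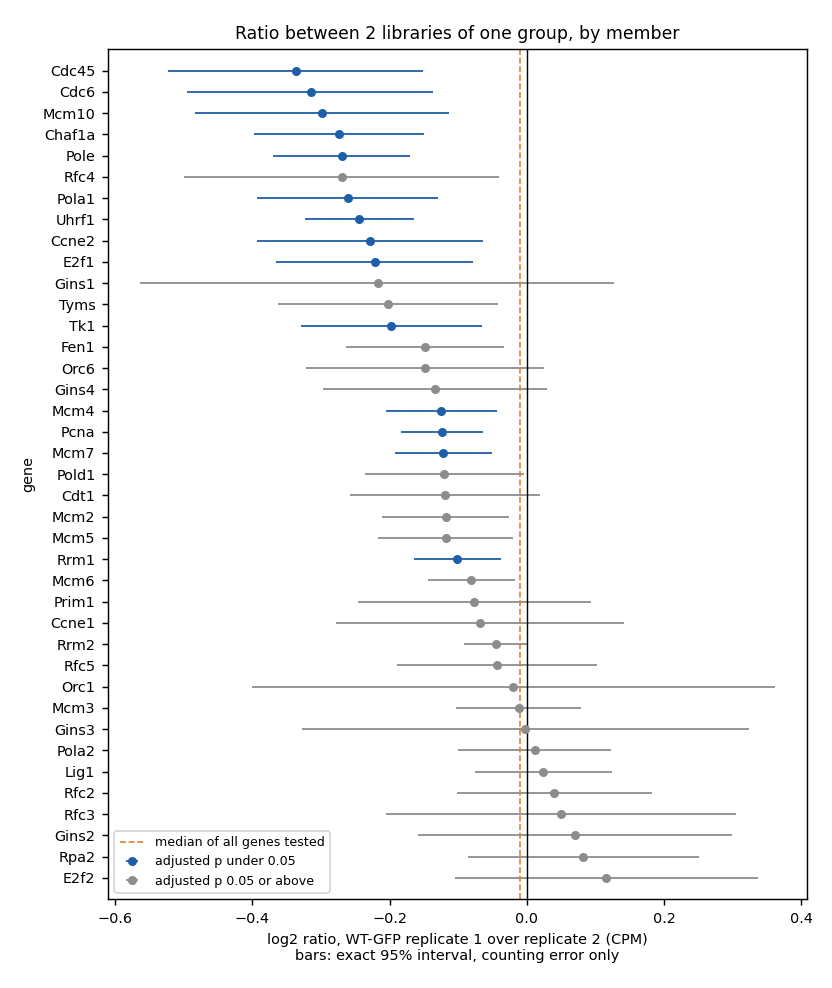
Log2 ratio of WT-GFP replicate 1 to replicate 2 for each member, from counts scaled by library size, with the exact 95% interval for counting error. Filled blue points are the 14 members with an adjusted p under 0.05 in the exact binomial test, and all lie left of 0. The dashed line is the median of all genes tested.

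The largest of these differences belonged to Cdc45 (chromosome 16, 18780447 to 18811987, minus strand), which had 23.6 CPM in replicate 1 (95% exact interval 21.5 to 26.0) and 29.9 CPM in replicate 2 (27.4 to 32.5). Its log2 ratio was -0.34 (exact interval -0.52 to -0.15, adjusted p = 0.00445, exact binomial test). Cdc6 (log2 ratio -0.32, adjusted p = 0.00594) and Mcm10 (-0.30, adjusted p = 0.0150) were close to it in the same exact test. Uhrf1 had the smallest adjusted p (log2 ratio -0.24, adjusted p = 7.09e-08, exact binomial test), followed by Pole (-0.27, adjusted p = 3.83e-06) and Chaf1a (-0.27, adjusted p = 0.000270). Pola1, E2f1, Ccne2 and Tk1 were lower by log2 ratios between -0.26 and -0.20, and Mcm4, Pcna, Mcm7 and Rrm1 by ratios between -0.12 and -0.10. Ccne2 was the 1 call lost with TMM scaling (adjusted p = 0.0591, exact binomial test), where Mcm4 was near the threshold (adjusted p = 0.04996). The abundant S phase gene Rrm2 did not pass (log2 ratio -0.04, exact interval -0.09 to 0.00, adjusted p = 0.214, exact binomial test), and nor did Mcm3, Orc1 or Gins3, of which Mcm3 and Gins3 changed sign with TMM scaling.

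The 7 members that were higher in replicate 1 were Pola2, Lig1, Rfc2, Rfc3, Gins2, Rpa2 and E2f2, with log2 ratios of 0.01 to 0.12, and none passed the test. The members' ratios had an SD of 0.12, and those of the genes in the same count range an SD of 0.15. The range of the members, -0.34 to 0.12, was thus shifted to lower values rather than wider. Members with either E2F string had a median log2 ratio of -0.12 (n = 11, 9 lower in replicate 1, 3 called). Those with a window but neither string had a median of -0.12 (n = 21, 18 lower, 8 called). Of all genes tested 14.8% were called. Other forms of the E2F site were not searched and may stand in the windows of the second group.

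**Figure D4:**
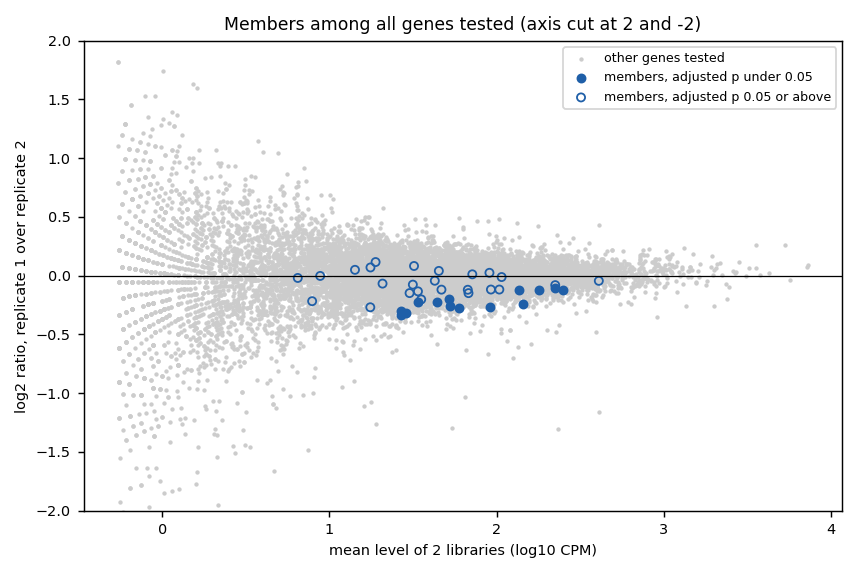
Log2 ratio of replicate 1 to replicate 2 against the mean level (log10 CPM) for all 12302 genes tested (grey), with the 39 members in blue, filled where the adjusted p was under 0.05. The members lie within the cloud of all genes, mostly in its lower part, between log2 ratios of -0.34 and 0.12.

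Related genes outside the list also leaned to lower values in replicate 1. Of 53 other replication genes 12 were called (22.6%), all lower in replicate 1, and 47 were lower in sign (88.7%). Their median log2 ratio was -0.10. Over all genes tested 14.8% were called, 8.38% as lower in replicate 1, and 53.0% were lower in sign. With TMM scaling 10 of the 53 were called, all lower (18.9%, against 6.80% of all genes tested). In sign 44 were then lower (83.0%, against 48.9%). Their levels had a median of 12.7 FPKM, and 31 reached 10 FPKM. The highest were Rnaseh2c (75.4 ± 3.11 FPKM, SD, n = 2), of the nuclease that removes RNA from DNA, the polymerase delta subunit Pold4 (70.3 ± 0.463 FPKM) and the clamp loader cofactor Chtf8 (50.2 ± 1.09 FPKM). The lowest were Mcm9 (1.83 ± 0.171 FPKM), Dscc1 (2.03 ± 0.0211 FPKM) and Ticrr (2.45 ± 0.0460 FPKM). Top2a, which untangles copied DNA, was at 40.7 FPKM in replicate 1 and 44.4 FPKM in replicate 2 (log2 ratio -0.13, by the exact binomial test, adjusted p = 0.00160).

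Among 31 other genes that control the G1/S step, 20 reached 10 FPKM. The test called 11 (35.5%, against 14.8% of all genes tested), 8 lower and 3 higher in replicate 1. With TMM scaling 5 were called lower and 3 higher. Of the cyclin D genes, Ccnd1 was at 255 FPKM in replicate 1 and 270 FPKM in replicate 2, and Ccnd2 averaged 144 ± 3.43 FPKM (SD, n = 2), both far above the cyclin E genes. The third cyclin D gene, Ccnd3, averaged 33.2 ± 1.72 FPKM, but with GENCODE lengths its 9.44 FPKM lay between Ccne1 (7.81 FPKM) and Ccne2 (9.66 FPKM). The cyclin D partner Cdk4 was at 137 and 143 FPKM, whereas Cdk2, the cyclin E partner, was at 11.9 and 14.3 FPKM. The cycle inhibitor genes were expressed beside them, with Cdkn1a (p21) at 153 and 162 FPKM and Cdkn1b (p27) at 19.7 and 16.9 FPKM. Cdkn1a was 14.8 and 14.9 times as high as Ccne1, or 11.5 and 11.6 times with GENCODE lengths. Cdkn1b was higher in replicate 1 (log2 ratio 0.23, adjusted p = 0.0174, exact binomial test), opposite to the members. Cdkn1a was lower (log2 ratio -0.08, adjusted p = 0.0300, exact binomial test), though not with TMM scaling (adjusted p = 0.0910). Cdkn1c (p57) was also lower, from 54 counts in replicate 1 and 111 in replicate 2 (log2 ratio -1.09, adjusted p = 7.47e-05, exact binomial test). Rb1, which holds E2F in check, was at 9.04 and 9.98 FPKM. The lowest of this list were Cdkn1c (2.28 ± 1.17 FPKM, SD, n = 2), E2f7 (2.46 ± 0.235 FPKM) and Skp2 (2.66 ± 0.361 FPKM).

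Markers of G2 and mitosis were present as well, 8 of 12 at 10 FPKM or more, with a median of 11.7 FPKM. Mki67, a marker of cycling cells, was at 29.8 FPKM in replicate 1 and 33.1 FPKM in replicate 2 and the mitotic kinase gene Cdk1 at 22.8 and 25.8 FPKM. Ube2c, of the ubiquitin system that ends mitosis, averaged 26.6 ± 0.568 FPKM (SD, n = 2). The lowest were Bub1 (6.91 ± 0.845 FPKM), Plk1 (7.66 ± 0.720 FPKM) and Ccnb1 (9.22 ± 0.0533 FPKM). Of these 12 genes 3 were called (25%, against 14.8% of all genes tested), all lower in replicate 1, namely Mki67, Cdk1 and Bub1. The median log2 ratio over the list was -0.05. Plk1, Aurkb and Foxm1 were higher in replicate 1 (log2 ratios 0.19, 0.14 and 0.01), and none of these 3 passed the test. With TMM scaling 7 of the 12 were lower in sign (58.3%), beside 48.9% of all genes tested. For the genes that were lower in replicate 1, the source of the difference was not tested. A smaller share of cycling cells, less RNA per cycling cell and a technical difference between libraries cannot be told apart in these bulk samples.

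**Figure D5:**
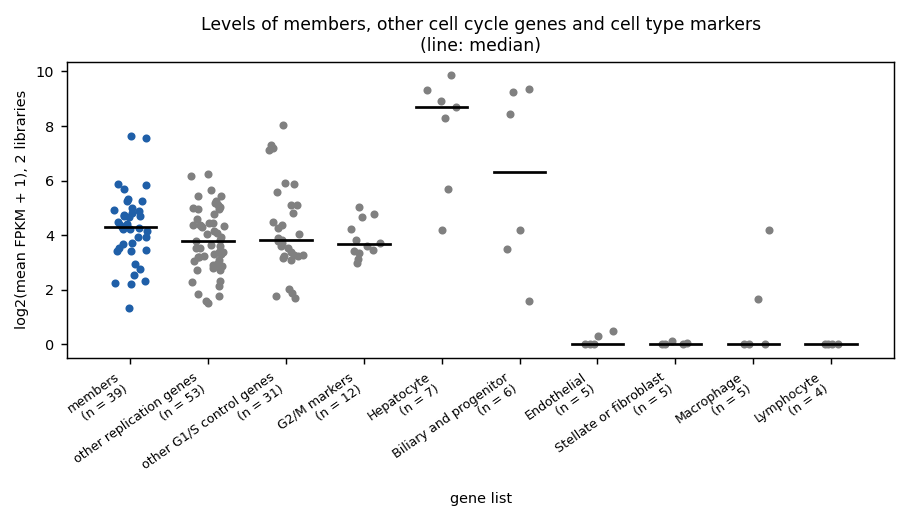
Mean FPKM over the 2 libraries, as log2(FPKM + 1), of each gene in the members' list, the 3 lists of related cell cycle genes and 6 lists of cell type markers, with a line at each median. The members (median 18.8 FPKM) overlap the related lists (medians 11.7 to 13.1 FPKM), and the endothelial, stellate and lymphocyte markers lie at or near 0.

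Hepatocyte markers moved the other way between the libraries. Of the 7 markers 6 were called and all 6 were higher in replicate 1, with a median log2 ratio of 0.12. Of all genes tested 14.8% were called, with 6.38% higher in replicate 1. At high counts the test called small ratios, such as 0.07 for Alb from 36407 and 33275 counts. The summed level of the 7 markers was 2963 FPKM in replicate 1 and 2725 FPKM in replicate 2. Trf was at 513 and 451 FPKM and Fgb at 669 and 597 FPKM, whereas Hnf4a, the seventh marker, was at 50.1 and 50.6 FPKM. The biliary and progenitor markers were called in 4 of 6 cases, with sums of 1651 and 1602 FPKM. In replicate 1, 2 of the 4 were lower (Epcam and Spp1) and 2 higher (Krt19 and Cd24a). The macrophage markers summed to 16.7 FPKM in replicate 1 and 21.8 FPKM in replicate 2. Most of this was Cd68, which was lower in replicate 1 (14.8 and 19.5 FPKM, adjusted p = 0.00199, exact binomial test). Csf1r, at 1.98 and 2.33 FPKM, was not called. The part of these cell type markers in the lower member levels of replicate 1 was not tested.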

How the data were processed

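Read counts per gene symbol were deposited by the authors as raw whole-number counts, with FPKM values beside them for 2 libraries, per the file headers. Alignment software HISAT2 2.2.1.0 and builds mm10 and hg38 appear, without roles, among the submitters' processing notes. Per the labels' protocols the library kit kept strand. Counter, annotation and strand setting: not given in the sources used here. The deposited FPKM equalled counts over library total and a whole gene length (within 0.01 bp for 100% of genes with a count), so they hold no separate measurement. Of 9 count columns 7 were not used, and the planned edgeR comparisons of the 3 groups were not run.

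CPM, exact Clopper-Pearson and Wilson intervals, exact binomial tests (SciPy 1.17.1) and Benjamini-Hochberg adjustment (statsmodels 0.14.6) were computed from the counts. Log2 ratios have 0.5 added to each count. TMM factors came from edgeR 4.0.16. The test was checked on simulated counts that held counting error only, so the check does not cover extra spread between libraries. GENCODE M21 (GRCm38, the assembly of mm10) matched 20625 of 21878 symbols and all 39 members. Pclaf was matched by an older symbol. Members and lists were chosen with earlier results of these data known. All members are named, with the 3 highest and 3 lowest genes of each related list and 10 fixed genes. Genes named beyond these were chosen after their values were seen. They were Orc2, Prim2, Rpa1, Dnmt1, Ccnd3, Aurkb, Foxm1 and the cell type markers given with values.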

Additional observations from a re-analysis of the deposited data

How the results depend on the processing

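The count of members that differed between the libraries was 14, against 13 with TMM scaling and 13 without a filter on low counts, and over all genes it was 1816, against 1794 and 1680. The levels depended more on the choices made. With GENCODE exon-union lengths 19 members in place of 29 reached 10 FPKM and the median was 9.98 FPKM in place of 18.8. In TPM, another unit, the median was 48.9. Leaving out each replicate in turn gave 29 to 32 members at 10 FPKM or more and medians of 18.8 to 19.6 FPKM. No paired analysis was possible because the 2 columns with a known sample are replicates of a single group. For the same reason DESeq2, other filters and leaving out replicates were not run for the 3 group comparisons. Members with few counts limit the depth: for Orc1 the exact interval of the log2 ratio ran from -0.40 to 0.36.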
